A study of Mus musculus with 24 samples.

Results

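The genes described here are 9 genes of retinoic acid synthesis and response: Stra6, Rdh10, Dhrs3, Aldh1a2, Aldh1a3, Crabp1, Crabp2, Rarb and Cyp26b1. They were chosen by name from the 51912 genes of the table of normalized counts and all 9 were found, once each. They were followed by bulk mRNA sequencing through 24 libraries of dissected mouse embryonic archicortex (ARK), the medial pallium from which the hippocampus forms, in 6 groups of 4. The study asked what the transcription factor SOX9 does there, and a mutant and a control group were collected for each Cre line and age. All embryos were of a mixed C57BL/6J;MF1 background and all, controls included, carried a Cre. At E13.5 there were Sox9fl/fl;Sox1Cre mutants (A1 to A4), Sox9+/+;Sox1Cre controls (A5 to A8), Sox9fl/fl;NestinCre mutants (A17 to A20) and Sox9+/+;NestinCre controls (A21 to A24). At E12.5 there were Sox9fl/fl;Sox1Cre mutants (A9 to A12) and Sox9+/+;Sox1Cre controls (A13 to A16). The lines differ as models: with Sox1Cre, a knock-in at Sox1, cortical hem and dentate neuroepithelium both lose Sox9 from an early stage, and with the later NestinCre transgene most of the hem keeps it. Whole tissue pieces were sequenced, and in such bulk samples fewer cells of a type and less RNA per cell cannot be told apart.

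Retinoic acid is made from vitamin A in a chain of steps. Retinol enters cells through STRA6, is oxidized to retinal by RDH10 and reduced back by DHRS3, and retinal is oxidized irreversibly to retinoic acid by the ALDH1A enzymes. CRABP1 and CRABP2 bind the acid inside the cell, nuclear receptors such as RARB carry its signal to DNA as partners of the RXRs, and CYP26 enzymes degrade it. In the embryonic forebrain the meninges are a known source of the acid. Rarb, Stra6, Cyp26b1, Dhrs3 and Crabp2 are also known targets of the pathway, so that several of these genes serve both as machinery and as readout.

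Retinoic acid receptors bind direct repeats of a hexamer, classically spaced by 5 bases, and the Rarb promoter holds the textbook example. It is shown here because Rarb is the member used most often as a readout of the acid. RefSeq promoter windows of GRCm38.p6, running from 250 bases before to 50 after a start, were at hand for 6 of the 9 genes, in 11 windows. Both strands were searched for the hexamer AGGTCA, for AGTTCA, which differs from it in the third base, and for the same pair starting with G, which are GGGTCA and GGTTCA, as direct repeats with 1, 2 or 5 bases between them. Only 1 of the 11 windows, that of Rarb (chr14:16575427-16575726, minus strand), held such a repeat, against 0.588% of 32851 windows of all genes for any of the 3 spacings and 0.0974% for the spacing of 5. The window of Cyp26a1 (chr19:37697558-37697857, plus strand), which encodes another enzyme that degrades the acid, is set beside it because it held a repeat with that spacing too. The Rarb window is printed first, with the repeat in capitals, and then the repeats alone, with the hexamers in capitals and the 5 bases between them in lower case. The Rarb repeat lies 53 to 37 bases before the start and the Cyp26a1 repeat, read on the opposite strand, 32 to 16 bases before it.
Rarb promoter: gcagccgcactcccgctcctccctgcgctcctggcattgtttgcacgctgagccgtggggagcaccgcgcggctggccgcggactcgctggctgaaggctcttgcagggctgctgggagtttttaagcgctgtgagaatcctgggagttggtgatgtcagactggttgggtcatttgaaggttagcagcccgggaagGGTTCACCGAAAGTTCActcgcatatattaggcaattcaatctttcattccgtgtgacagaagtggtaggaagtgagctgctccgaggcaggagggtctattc
Rarb repeat: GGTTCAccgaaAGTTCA
Cyp26a1 repeat: AGTTCAcccaaAGTTCA

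The same Rarb window held 1 copy of AACAATG, a sequence that SOX proteins bind, which 3.78% of all windows held on either strand and which no other window of these genes held. A single hexamer occurred in 2 of the 11 windows, those of Rarb and of a Stra6 start, against 43.7% of all windows. These are matches of letters in short windows and no binding was measured. The Rarb repeat is the textbook example and was known before the search, so its match does not measure enrichment among these genes. Rarb and Cyp26a1 both hold a repeat of the same spacing near their start, yet Rarb had 6508 reads over the 24 libraries and Cyp26a1 had 4.

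The values are counts that the authors divided by 1 size factor per library, and are called normalized counts. A difference is given as log2 of the normalized count plus 1, with its standard error from a limma fit over all 24 libraries, and p-values were adjusted (Benjamini-Hochberg) over the 16454 genes that reached 10 in at least 4 libraries. Of the 9 retinoid genes 8 passed that filter. Depth ranged from 16163560 to 49445219 reads on genes, with a median of 23016925. No label says that the replicates are separate embryos, and p-values then measure the spread between these libraries only.

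The deleted gene followed its labels. Sox9 had 2828 to 3677 normalized counts in the Sox1Cre mutants at E13.5 and 5218 to 5912 in their controls, a log2 difference of -0.74 (SE 0.118, adjusted p = 0.00210, limma), and of -0.77 without library A1. The corresponding ranges were 1734 to 2785 and 4194 to 5265 at E12.5, and 2997 to 3369 and 4586 to 5636 in the NestinCre line, with adjusted p = 6.28e-05 and 0.0297 (limma). Mutants and controls did not overlap in any of these 3 comparisons, and the values count reads over the whole gene, exons outside the deleted part included. In the NestinCre line Sox9 differed by -0.71. The change in the Sox1Cre line at E13.5 minus that in the NestinCre line was -0.02 (SE 0.167, adjusted p = 0.996, limma).

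The dissected tissue matched its label, and other cell types came with it. All 9 archicortex markers fixed for the check were measured, led by Lhx2, and their summed normalized count ranged from 23523 to 51676. Markers of the ventral telencephalon were low: their sum was between 314 and 569 in 23 libraries, mostly Ebf1, with a mean of 1.35 for Nkx2-1, which had no read in 14 libraries, and reached 1187 in A18. Choroid plexus markers, led by Ttr, summed to 17017 to 91612 in 23 libraries. Meningeal markers, led by Col3a1, summed to 25816 to 56454 in those libraries, and globins and other red cell genes, led by Hbb-y, to 75880 to 228182 over all 24. Library A1, a Sox1Cre mutant at E13.5, stood apart. Its choroid plexus sum was 8082, its meningeal sum 18574, its endothelial sum 4918 and its pericyte sum 2067, each the lowest of the 24. The changes of the 8 tested retinoid genes at E13.5 in the Sox1Cre line are therefore given with and without it, as are their correlations with each other and with the marker lists. The sexes of the embryos were also unevenly spread: by Xist and 4 Y-linked genes, all 4 Sox1Cre controls at E12.5 were female and all 4 at E13.5 were male, while each of the 3 mutant groups held 2 of each and the NestinCre controls 1 female and 3 males.

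Compared per length of exon, the retinoid genes spanned more than 3 orders of magnitude. The length was that of all bases in any annotated exon of a gene, which can exceed that of the transcripts made, so orders between genes depend on it. As means over the 24 libraries, which pool both ages, Crabp2 had 1299 normalized counts per kb, Crabp1 217, Rdh10 147 and Stra6 131. Crabp2 was the highest of the 9 in each group, whereas the order of the next genes varied: Rdh10 (192) lay above Crabp1 (178) in the Sox1Cre controls at E13.5, and Stra6 (159) above Rdh10 (115) in the Sox1Cre mutants at E12.5. The pooled means were 76.5 for Aldh1a2, 50.3 for Rarb, 30.97 for Dhrs3 and 21.9 for Cyp26b1 per kb. Here too the order varied. Aldh1a2 lay below Rarb in both groups at E12.5 (46.1 against 58.2 in the controls and 36.5 against 54.2 in the mutants). Cyp26b1 (58.3) lay above Rarb (46.1) and Dhrs3 (36.4) in the Sox1Cre mutants at E13.5, a mean that rested in large part on A4 (149). In A2 and A3 of that group Cyp26b1 (18.1 and 26.7) lay below Rarb (61.5 and 56.3) and Dhrs3 (42.2 and 41.4). In A1 (39.2) it lay above both. Aldh1a3 stood at 0.464 per kb. Among their nearest relatives, Fabp5, which shuttles fatty acids and can also deliver retinoic acid to the nucleus, had a mean of 1153 per kb. Per kb, Fabp5 lay below Crabp2 at E12.5 (1076 against 1831 in the Sox1Cre controls) and above it at E13.5 (1295 against 865). The lengths used were 3567 bases for Fabp5 and 1322 for Crabp2. Not divided by length, the means over the 24 libraries were 4114 normalized counts for Fabp5 and 1718 for Crabp2. The receptors Rxrb (343), Rxra (288) and Rara (114) all lay above Rarb per kb, and Rarg (63.4) was close to it, whereas Rxrg had 3.38. Aldh1a1, another enzyme of the last step, had 2.73 per kb. Of the other degrading enzymes of its family, Cyp26a1 gave 4 reads in total and Cyp26c1 gave 1, where Cyp26b1 was found in every library. No library had a read of Stra8 or Hoxb1, which are classical targets of the acid elsewhere in the embryo.

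**Figure D1:**
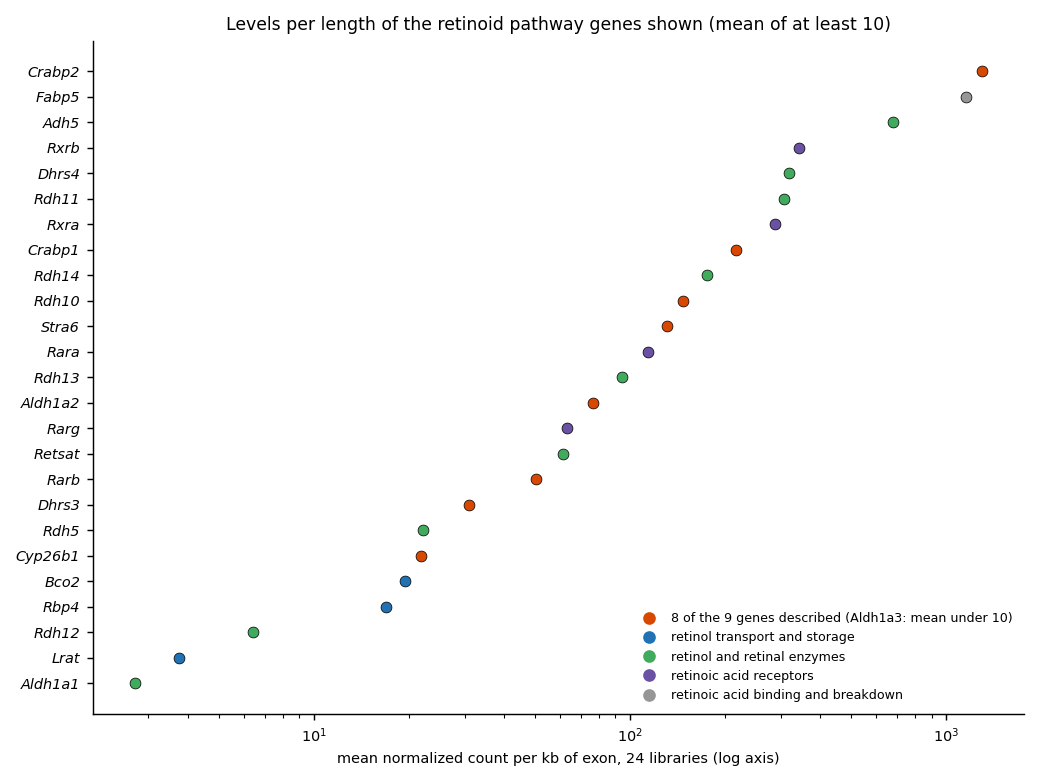
Mean normalized count per kb of exon over 24 libraries (log axis) for the retinoid pathway genes shown, which have a mean of at least 10 normalized counts; each point is 1 gene, coloured by list. Of the 8 plotted members, pooled over ages, Crabp2 lies at 1299 per kb and Cyp26b1 at 21.9. The order of the genes between them varied between groups, and that of Cyp26b1 varied in large part through library A4.

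Within each gene the groups differed far less. The plot of members by group shows the 24 values of each gene; the E12.5 and E13.5 groups separate for Crabp2 and nearly so for Aldh1a2, whereas mutants and controls of the same age and line overlap for nearly all genes.

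**Figure D2:**
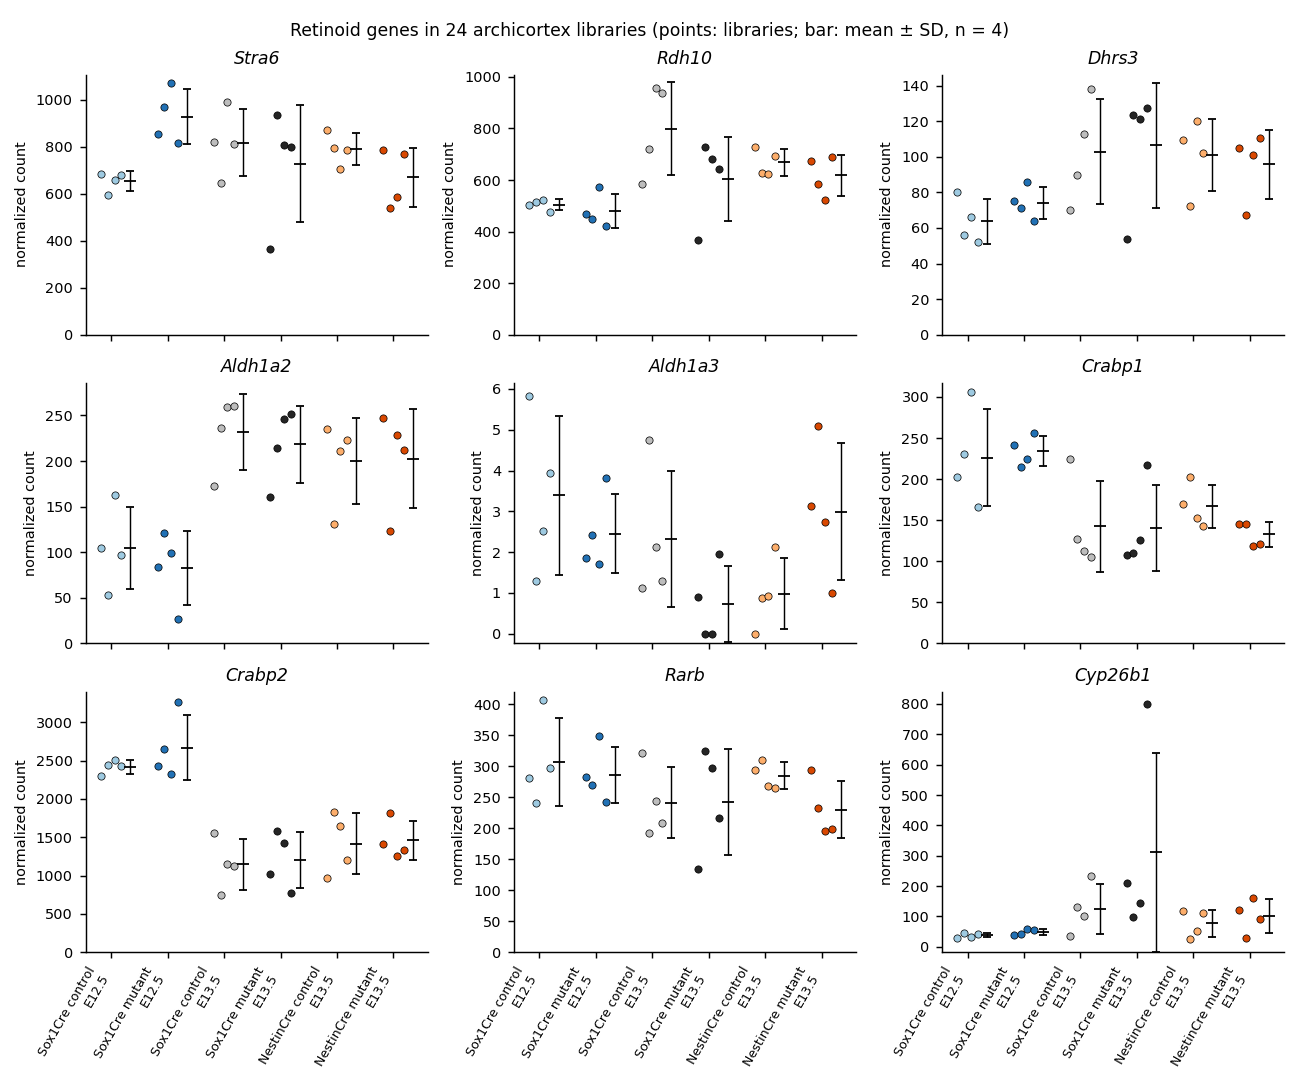
Normalized counts of the 9 retinoid genes in 6 groups; each point is 1 library, and the bar beside it is the mean ± SD (n = 4 per group), whose lower end can fall below 0. All 8 E12.5 libraries of Crabp2 lie above the 16 of E13.5 (2298 against 1836 at the nearest), and 1 Sox1Cre mutant at E13.5 reaches 799 for Cyp26b1.

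The first question was whether loss of Sox9 altered the retinoid genes. None of the 8 genes tested passed the threshold in the Sox1Cre line at E13.5, in the Sox1Cre line at E12.5 or in the NestinCre line at E13.5 (limma, adjusted p under 0.05). The background was low as well: of the 16454 genes tested, 0.924% were called in the Sox1Cre line at E13.5, 0.723% at E12.5 and 0.0669% in the NestinCre line. At an unadjusted p under 0.05 there were 2 of these 24 values, Rdh10 in the Sox1Cre line at E13.5 and Stra6 in the same line at E12.5. Over all 16454 genes, 1932 had such a p in the Sox1Cre line at E13.5, 2217 at E12.5 and 1064 in the NestinCre line (limma). The edgeR and DESeq2 fits on the recovered reads called none of the 8 genes in these comparisons either. Mutants and controls also differed in their share of females, and with Xist as a covariate none of the 8 genes was called (limma). The 95% intervals of the plot of changes show what the design could resolve: for Crabp2 they ran from -0.40 to 0.53 in the Sox1Cre line at E13.5, and for Cyp26b1 from -0.21 to 2.37.

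**Figure D3:**
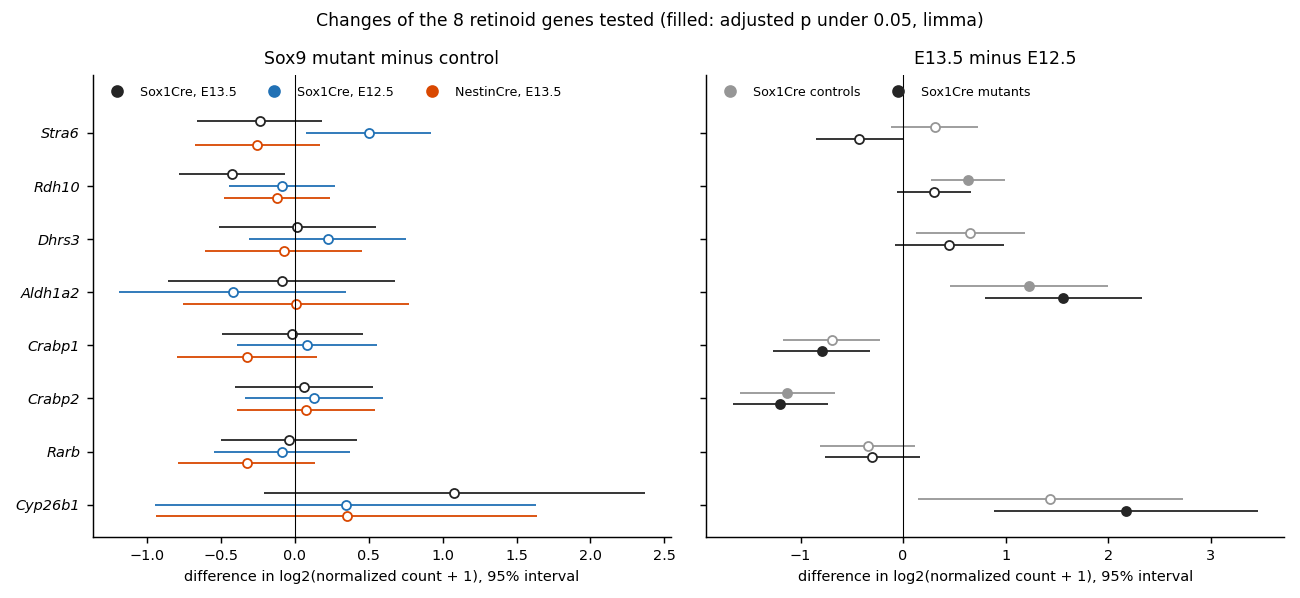
Differences in log2(normalized count + 1) with 95% intervals from the limma fit (24 libraries, 4 per group) for the 8 genes tested. Left, mutant minus control; right, E13.5 minus E12.5; filled points have an adjusted p under 0.05. No point is filled on the left; on the right Crabp2 and Aldh1a2 are filled in both controls and mutants.

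Uptake of retinol was examined through Stra6 (ENSMUSG00000032327; chr9:58063788-58153996, plus strand, GRCm38), the membrane receptor for retinol carried by its plasma binding protein. At E12.5 Stra6 had 855, 969, 1072 and 817 normalized counts in the Sox1Cre mutants and 686, 594, 657 and 679 in their controls. All 4 mutants lay above all 4 controls. Among the 8 genes and the 3 deletion comparisons, this was the only case without overlap between mutants and controls. The difference was 0.50 (SE 0.203, 95% interval 0.08 to 0.92) with an adjusted p of 0.282 (limma), and an exact permutation test gave p = 0.0286, the smallest that 4 libraries against 4 allow. Separation of this kind was not rare in that comparison, where 10.3% of all genes tested had groups that did not overlap, against 5.06% in the Sox1Cre line at E13.5 and 4.98% in the NestinCre line. Choroid plexus markers moved with it: their sums were 36670, 34067, 44577 and 20865 in the mutants and 20786, 17017, 26176 and 29850 in the controls, and 7 of the 8 markers were higher on average in the mutants. Cortical hem markers were higher in 12 of 12 cases (median log2 difference 0.20), with sums of 51369, 50590, 50714 and 71714 in the mutants and 37904, 42677, 54633 and 59718 in the controls, and all 9 archicortex markers were lower (median -0.24). No marker of these 3 lists passed the threshold, and their part in the Stra6 difference was not tested.

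At E13.5 Stra6 stood at 367, 937, 806 and 799 in the Sox1Cre mutants, where 367 is A1, and at 822, 644, 992 and 812 in the controls. The groups overlapped and the difference was -0.24 (SE 0.203, adjusted p = 0.719, limma). Without A1 it was 0.06 (SE 0.137, adjusted p = 0.841, limma). The NestinCre mutants had 785, 538, 588 and 767 and their controls 872, 794, 708 and 786, with a difference of -0.25 (SE 0.203, adjusted p = 0.965, limma). The change at E13.5 minus that at E12.5 was -0.73 (SE 0.287, unadjusted p = 0.0183, adjusted p = 0.610, limma), and without A1 -0.43 (SE 0.187, adjusted p = 0.584, limma).

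Rdh10 (ENSMUSG00000025921; chr1:16105774-16133734, plus strand) encodes the main enzyme that turns retinol into retinal in the embryo. In the Sox1Cre line at E13.5 the mutants had 366, 727, 680 and 641 normalized counts, A1 again the lowest, and the controls 583, 721, 955 and 938. Apart from A1 every mutant lay inside the range of the controls. The difference was -0.42 (SE 0.173, 95% interval -0.78 to -0.06), with an unadjusted p of 0.0231 and an adjusted p of 0.329 (limma). Without A1 it was -0.20 (SE 0.138, adjusted p = 0.446, limma). At E12.5 the values were 468, 449, 573 and 422 in mutants and 505, 516, 521 and 478 in controls, where 3 of the 4 mutants lay below all controls and the fourth above them. In the NestinCre line they were 676, 584, 523 and 688 against 730, 626, 625 and 692, and the groups overlapped.

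Dhrs3 (ENSMUSG00000066026; chr4:144892827-144928209, plus strand), the reductase that returns retinal to retinol and so lowers its supply, had 53.8, 124, 121 and 127 normalized counts in the Sox1Cre mutants at E13.5 and 70.2, 89.5, 113 and 138 in the controls. A1 held the lowest value of that group once more, and the other 3 mutants lay within the controls. The difference was 0.02 (SE 0.255), and 0.31 (SE 0.219, adjusted p = 0.452, limma) without A1. The other comparisons of mutants with controls gave 0.22 at E12.5 and -0.08 in the NestinCre line, both within 1 standard error of 0.

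Aldh1a2 (ENSMUSG00000013584; chr9:71215789-71296243, plus strand) makes most of the retinoic acid of the early embryo. At E13.5 its normalized counts were 161, 214, 247 and 252 in the Sox1Cre mutants and 172, 236, 259 and 260 in the controls, with a difference of -0.09 (SE 0.369, 95% interval -0.86 to 0.68), which was 0.05 (SE 0.398) without A1. Both groups spread over about the same values. At E12.5 the mutants had 83.8, 121, 98.6 and 26.8 and the controls 105, 53.4, 163 and 96.5, a difference of -0.42 (SE 0.369, adjusted p = 0.653, limma), which was 0.05 without A12, the lowest mutant. In the NestinCre line the mean was 203 ± 54.8 (SD, n = 4) in mutants and 199.9 ± 47.0 in controls. Aldh1a3 (ENSMUSG00000015134; chr7:66390890-66427517, minus strand), its paralog, was barely detected: 54 reads in all, 0 to 5.84 normalized counts per library, and no read in 3 libraries. It did not reach the filter and no fold change is given for it.

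Among the binding proteins, Crabp2 (ENSMUSG00000004885; chr3:87948666-87953376, plus strand), which hands the acid to its nuclear receptors, had the highest level and moved little with the genotype. The Sox1Cre mutants at E13.5 had 1022, 1575, 1427 and 775 normalized counts and the controls 1561, 741, 1148 and 1126. Each group spanned more than the distance between their means of 1199.7 and 1144. At E12.5 the mutants had 2436, 2651, 2329 and 3272 and the controls 2298, 2439, 2513 and 2431, and in the NestinCre line the means were 1458 ± 250.4 and 1413 ± 399 (SD, n = 4). The differences were 0.06, 0.13 and 0.08 (SE 0.224 each), and the first was 0.12 without A1. Crabp1 (ENSMUSG00000032291; chr9:54764748-54773110, plus strand), which holds the acid in the cytoplasm, differed by -0.02 (0.09 without A1) and 0.08 in the Sox1Cre line at E13.5 and E12.5 and by -0.32 (SE 0.229, adjusted p = 0.950, limma) in the NestinCre line. There the mutants had 146, 145, 118 and 121 and the controls 169, 203, 152 and 143, so that the groups overlapped only through the lowest control.

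Rarb (ENSMUSG00000017491; chr14:16430839-16819156, minus strand), whose promoter carries the repeat printed above, had 134, 324, 296 and 216 normalized counts in the Sox1Cre mutants at E13.5 and 320, 191, 243 and 209 in the controls. The lowest and the highest of the 8 values were both mutants, the lowest being A1, and the difference was -0.04 (SE 0.222, adjusted p = 0.976, limma). It was 0.22 (SE 0.192, adjusted p = 0.568, limma) without A1. In the NestinCre line the mutants had 293, 232, 195 and 198 and the controls 294, 311, 268 and 265, so that 3 of the 4 mutants lay below all controls. The difference there was -0.32 (SE 0.222, 95% interval -0.79 to 0.14, adjusted p = 0.946, limma). At E12.5 the means were 286 ± 44.9 in mutants and 306 ± 70.6 in controls (SD, n = 4). Exons of Rarb share 1793 of their 5265 bases, 34.1%, with the exons of Top2b on the opposite strand, which had a mean of 11885 normalized counts. Whether the counting used strand is not given in the sources used here, so the values of Rarb are uncertain to that extent.

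Degradation of the acid was followed through Cyp26b1 (ENSMUSG00000063415; chr6:84571414-84593908, minus strand), which had the widest spread of the 8 genes. At E13.5 the Sox1Cre mutants had 210, 96.8, 143 and 799 normalized counts and the controls 36.2, 132, 102 and 233. The value of 799, in A4, was the highest of all 24 libraries, and the other 3 mutants lay within the range of the controls. The difference was 1.08 (SE 0.620, 95% interval -0.21 to 2.37, adjusted p = 0.532, limma). It rested in large part on A4, without which it was 0.46 (adjusted p = 0.872, limma), and on the lowest control, A5, without which it was 0.58 (adjusted p = 0.904, limma). Without A1 its adjusted p was 0.397 (limma). In the NestinCre line the mutants had 120, 28.0, 160 and 92.7 and the controls 117, 26.5, 53.5 and 113, with a difference of 0.35 (SE 0.620). Leaving out 1 library moved this difference to between -0.08 and 0.87. At E12.5 all 8 values lay between 30.6 and 60.01.

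The deletions were also compared with each other. None of the 8 genes differed in its change between the Sox1Cre and the NestinCre line at E13.5, nor between E13.5 and E12.5 in the Sox1Cre line (limma, adjusted p under 0.05), comparisons in which 0.0425% and 0% of all genes tested were called. For the latter, 1217 genes had an unadjusted p under 0.05, edgeR called 0 and DESeq2 20. The controls of both lines at E13.5 differed in none of the 8 genes either, against 0.243% of all genes. For Cyp26b1 the control groups differed by -0.64 (SE 0.620), and by -0.21 without A22 and -1.14 without A5.

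The wider pathway was covered by 49 further genes in 6 lists, of which 29 passed the filter. Loss of Sox9 changed 1 of these 29 in the Sox1Cre line at E13.5, where 0.924% of all genes tested were called, and 0 of them at E12.5 (0.723%) or in the NestinCre line (0.0669%). That gene was Lrat, the enzyme that esterifies retinol for storage (ENSMUSG00000028003; chr3:82892579-82903973, minus strand). Lrat had 1.83, 4.30, 3.98 and 5.87 normalized counts in the Sox1Cre mutants at E13.5 and 13.6, 54.0, 96.9 and 58.9 in their controls. Every mutant lay below every control, which 5.06% of all genes tested also showed in one direction or the other. The difference was -3.29 (SE 0.612, 95% interval -4.56 to -2.02, adjusted p = 0.00824, limma), and an exact permutation test gave p = 0.0286. Without A1 it was -3.04 (adjusted p = 0.0174, limma), edgeR gave an adjusted p of 0.00601, and in a limma fit of these 8 libraries alone the adjusted p was 0.0860. On average, 11 of 12 meningeal markers (median -0.24) and 8 of 8 endothelial markers (median -0.32) were lower in the mutants, none past the threshold. The meningeal sums were 18574, 43772, 34324 and 29840 in the mutants and 44072, 35920, 38637 and 31903 in the controls, and the endothelial sums 4918, 12421, 9558 and 9572 against 10375, 10581, 11087 and 9938. A1 was the lowest of the 8 in both sums, whereas A2 had the highest endothelial sum, 12421, with 4.30 for Lrat. Choroid plexus sums went the other way, with a mean of 60624 in the mutants and 46984 in the controls. The part of these cell types in the Lrat difference was not tested.

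In the NestinCre line the groups overlapped. Lrat had 32.5, 10.2, 29.3 and 29.6 normalized counts in NestinCre mutants and 37.3, 8.85, 10.1 and 62.9 in their controls, a difference of 0.09 (SE 0.612, adjusted p = 1, limma). The change in the Sox1Cre line minus that in the NestinCre line was -3.38 (SE 0.865, unadjusted p = 0.000800), which did not pass the threshold after adjustment (adjusted p = 0.166, limma). At E12.5 Lrat was near the limit of detection in both Sox1Cre groups, with 3.08, 0.810, 0 and 1.27 in mutants and 5.84, 2.61, 3.76 and 2.95 in controls. The Sox1Cre mutants at E13.5 therefore stood near the level of E12.5, and the difference rested on few reads, 16 in the mutants and 263 in the controls.

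**Figure D4:**
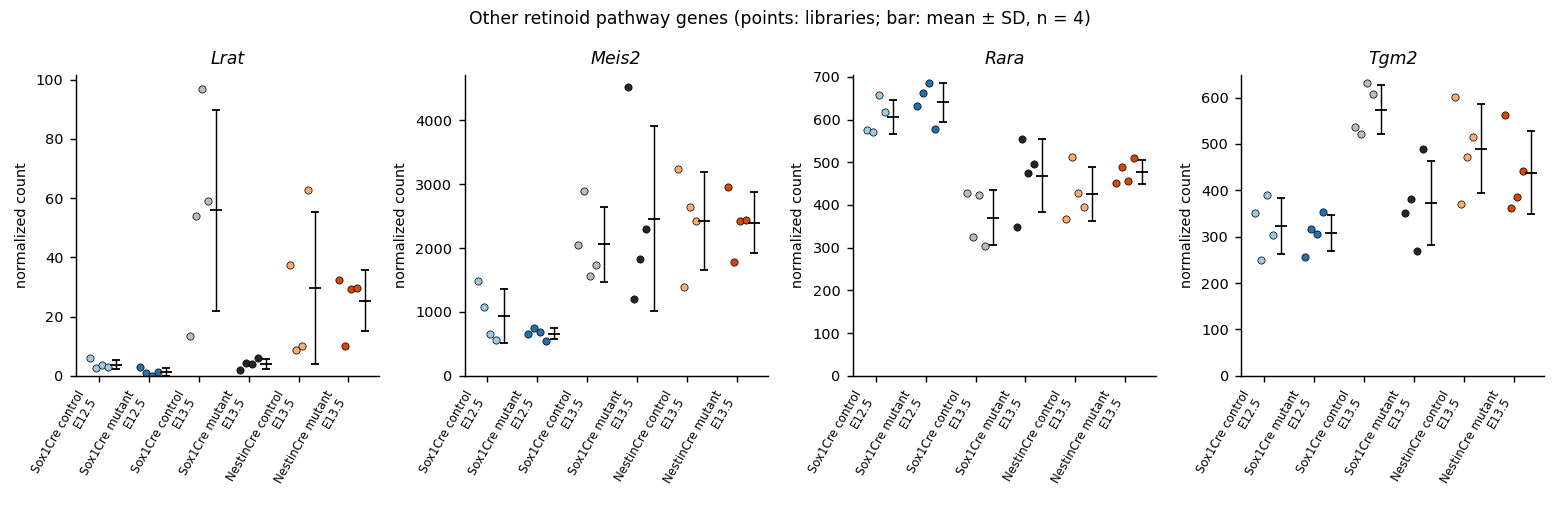
Normalized counts of Lrat, Meis2, Rara and Tgm2 in 6 groups; each point is 1 library, and the bar is the mean ± SD (n = 4). For Lrat the 4 Sox1Cre mutants at E13.5 lie between 1.83 and 5.87 and their controls between 13.6 and 96.9.

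No other list of the pathway held a gene called in a deletion comparison: 9 tested enzymes of retinol and retinal, 5 receptors, 6 coregulators, 1 further binding protein and 4 other response genes. In the Sox1Cre line at E13.5 the median difference was -0.04 for these enzymes, -0.18 for the receptors, 0.01 for the coregulators and -0.06 for the response genes, beside -0.03 for the 8 genes described and -0.0046 over all genes.

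More genes were called between the ages than between the genotypes. Between E12.5 and E13.5 in the Sox1Cre controls 11.5% of all genes tested were called, and 3 of the 8 retinoid genes were. Aldh1a2 was higher at E13.5 by 1.23 (SE 0.369, adjusted p = 0.0350, limma), from 105 ± 45.0 to 232 ± 41.3 normalized counts (SD, n = 4). Rdh10 was higher by 0.63 (SE 0.173, adjusted p = 0.0224), from 505 ± 19.5 to 799 ± 179. Crabp2 fell by 1.13 on the log2 scale (SE 0.224, adjusted p = 0.00428, limma), from 2420 ± 89.2 to 1144 ± 335. For each of the 3 genes the ages did not overlap (exact permutation p = 0.0286), as was true of 18% of all genes tested. Since the E12.5 controls were all female and the E13.5 controls all male, age and sex cannot be told apart there, and with Xist as a covariate the differences were 1.44, 0.80 and -0.83 (adjusted p of 0.163, 0.110 and 0.157, limma). No gene of the 16454 passed in that fit, so its lost calls say nothing of these genes in particular. Crabp2 passed whichever library was left out, whereas Aldh1a2 did not without A6, A7, A8, A13, A14 or A16, nor Rdh10 without A7, A8 or A16.

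The Sox1Cre mutants, with 2 females and 2 males at each age, gave a comparison free of the limit of sex, which was added after the sexes had been seen. Age cannot be told apart from litter or dissection day in either genotype. Between the ages of the mutants 25.9% of all genes tested were called, and 23.1% had ages that did not overlap. Aldh1a2 was higher at E13.5 by 1.56 (SE 0.369, adjusted p = 0.00428) and Crabp2 was lower, with a fold of 0.436 (adjusted p = 0.000895, limma), each without overlap. Crabp1 was lower as well, at -0.79 (SE 0.229, adjusted p = 0.0143), and Cyp26b1 higher by 2.17 (SE 0.620, adjusted p = 0.0137, limma), again without overlap. Without A4 the change of Cyp26b1 was 1.55 with an adjusted p of 0.0643 (limma). Crabp1 missed the threshold in the controls, where it differed by -0.70 (adjusted p = 0.0521), as did Cyp26b1, at 1.44 (adjusted p = 0.139, limma). Rdh10 differed by 0.30 (adjusted p = 0.218) in the mutants and Dhrs3 by 0.45 (adjusted p = 0.207), and without A1 they passed, at 0.52 (adjusted p = 0.0109) and 0.75 (adjusted p = 0.0187, limma). Stra6 and Rarb passed in neither genotype. Without A2, Stra6 passed in the mutants at -0.58 (adjusted p = 0.0412, limma).

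Set over all groups, Crabp2 had 2298 to 3272 normalized counts in the 8 libraries of E12.5 and 741 to 1836 in the 16 of E13.5. Of the 16 libraries of E13.5, 13 lay above every E12.5 library for Aldh1a2, 14 for Rdh10, 12 for Dhrs3 and 12 for Cyp26b1. Below every E12.5 library lay 12 for Crabp1, 7 for Rarb, 3 for Stra6, 2 for Cyp26b1 and 1 for Rdh10. Aldh1a2, Rdh10, Dhrs3 and Cyp26b1 were thus higher in most libraries of the later age, and Crabp1 and Crabp2 lower. The tissue composition differed with age as well. Erythroid sums were 189100 to 228182 at E12.5 and 75880 to 176000 in 15 of the 16 libraries of E13.5 (188895 in A22). Neuronal markers summed to 14829 to 17264 at E12.5 and to 17812 to 33620 at E13.5. Of the 12 cortical hem markers, led by Wnt8b, 6 fell with age in the controls and 10 in the mutants, and 2 of the 8 choroid plexus markers rose in the mutants. Of the 9 archicortex markers 2 rose and 1 fell in the controls, and 7 rose and 1 fell in the mutants. Of the 12 meningeal markers 3 rose and 1 fell in the controls, and 3 rose and 6 fell in the mutants. The part of these shifts in the retinoid changes was not tested.

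Of the 29 tested genes of the wider pathway, 6 were higher at E13.5 and 2 lower in the controls, where 11.5% of all genes were called and sex again differed with age. Those higher included Lrat by 3.33, Meis2 (2.30-fold), Rarres2 by 1.06, the transglutaminase gene Tgm2 by 0.84 and Fabp5 by 0.27. Rara, the most broadly expressed of the retinoic acid receptors, fell by 0.72 on the log2 scale (adjusted p = 0.00261, limma) and the coactivator Ncoa2 by 0.16. Several of these calls depended on single libraries: leaving out 1 of the 8 in turn, Fabp5 passed only without A7 and Rarres2 only without A5 or A15, Meis2 did not pass without A6, A8, A15 or A16, and Ncoa2 not without A8, A15 or A16. In the mutants 6 of the 29 rose and 6 fell, against 25.9% of all genes called. Among those that rose, Meis2, a homeobox gene induced by retinoic acid in limb and brain, rose by 1.73 (adjusted p = 0.00125), the plasma retinol carrier Rbp4 by 3.07 and Aldh1a1 by 2.46, which had at most 6.37 and 16.3 normalized counts in those mutants at E12.5, together with Fabp5 and the corepressor Ncor1. Of these, Rbp4 passed in only 1 of the 8 fits that left out a library, that without A2 (adjusted p from 0.0210 to 0.102, limma), Aldh1a1 ranged from 1.81 without A10, where it did not pass, to 3.18 without A11, and Fabp5 did not pass without A1, A4 or A12. The receptors Rara (-0.47), Rxra (-0.32) and Rxrb (-0.15), the coregulators Nrip1 and Ncoa2 and the enzyme Rdh11 were lower. Lrat differed by 1.23 (SE 0.612, adjusted p = 0.145, limma) in the mutants and 3.33 in the controls, and the difference between these changes did not pass the threshold (-2.10, adjusted p = 0.630, limma).

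Several of these genes varied together among the libraries of a group. After the group means were taken out, Rdh10 and Stra6 correlated with r = 0.820 over the 24 libraries (0.605 without A1), Rdh10 and Dhrs3 with 0.811 (0.656), and Rarb and Stra6 with 0.728 (0.480). Crabp2 and Cyp26b1 ran against each other, with r = -0.783 (-0.794 without A1). All libraries share 1 normalization, the points within a group share its tissue and line, and A1 was the lowest of its group for Rdh10, Stra6, Dhrs3 and Rarb alike. Against the marker lists, the mean log2 of the 8 choroid plexus markers went with Stra6 (r = 0.902), Rdh10 (0.896) and Dhrs3 (0.865) within groups, and without A1 these were 0.736, 0.782 and 0.753. The meningeal markers went with Rarb (0.884, or 0.806 without A1) and Stra6 (0.731, or 0.485). Neuronal markers went against Crabp2 (-0.902) and with Cyp26b1 (0.742), and erythroid markers the other way round, with Crabp2 (0.721) and against Cyp26b1 (-0.674). Without A1 these 4 values were -0.925, 0.809, 0.715 and -0.698. Crabp2 also went against the archicortex markers (-0.798, or -0.800 without A1) and with those of the cortical hem (0.652, or 0.743). Cyp26b1 went with the archicortex markers (0.623, or 0.660). For Aldh1a2 the values were 0.587 for the archicortex markers and 0.571 for those of the choroid plexus, and 0.696 and 0.683 without A1.

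**Figure D5:**
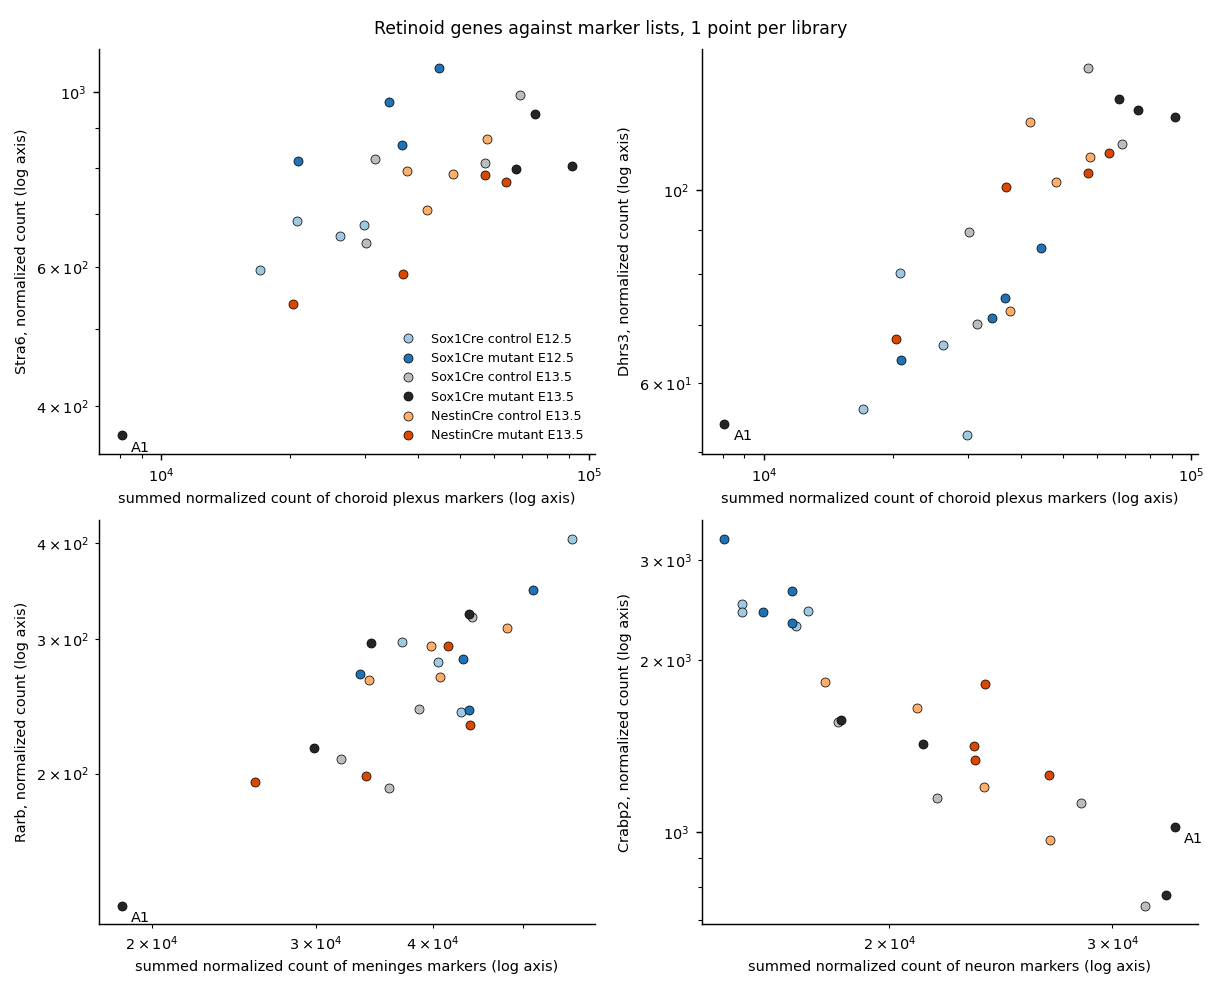
Normalized counts of Stra6, Dhrs3, Rarb and Crabp2 (log axis) against the summed normalized count of the choroid plexus, choroid plexus, meningeal and neuron markers (log axis); each point is 1 of 24 libraries, coloured by group, and A1 is named. A1 has the lowest choroid plexus sum (8082) and meningeal sum (18574).

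The genes most like each member over the 24 libraries were listed by Pearson r among genes with a mean of at least 100. Nearest to Stra6 were Ccdc60 (r = 0.933) and Trpm3 (0.904), followed among others by the cilium genes Enkur and Zmynd10. Nearest to Dhrs3 were Dnah9, an axonemal dynein, and Aqp1, a water channel of the choroid plexus, both with r = 0.928, then Slc4a5, Pitpnm1 and Car12. Rdh10 ran with Vstm4 (0.881), Slc4a2, Nid2, Sgk3 and Slc38a3, and Rarb with Akap12 (0.923), Nab2, Crispld1, Reck and Svep1. Crabp2 ran with genes of primitive red cells, among them Hba-x (0.970), Slc4a1 and Hbb-y, and with Grhl3. Cyp26b1 ran with Nuak1 (0.952), Mturn, Ephb6, Nr4a3 and Aplp1, and Aldh1a2 with Fgf11 (0.952), Atp2b2, Pcp4, Slitrk2 and Kcnj3. Crabp1 had the weakest partners, Abcc5 at 0.855 first, then Abcb6, Rassf7, Pkn3 and Slc16a3. These relations are across 24 libraries, A1 included, that share group means and 1 scaling, and are given as a description.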

How the data were processed

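The members and gene lists were chosen with earlier results of these data known. The authors trimmed reads with Trimmomatic 0.36, aligned them with STAR 2.5.2a to GRCm38, estimated gene counts with RSEM 1.2.31 and scaled the counts by DESeq2. Each deposited value is thus a signal: a gene's count over the size factor of its library. Whole reads were recovered from the steps between values (100% of values within 0.01 of a read) in all libraries; in A3 the step is close to 1, which makes that check weaker there. Gene symbols came from the GENCODE annotation and matched 51719 of 51912 identifiers. A gene without a read may still hold up to 3 reads' worth of transcript in a library, counting error only.

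The main test was limma 3.58.1 (lmFit, eBayes with trend; R 4.3.3) on log2(normalized count + 1), with 1 mean for each of the 6 groups, two-sided. The pseudocount understates changes of low genes. edgeR 4.0.16 and DESeq2 1.42.0 on the recovered reads, pseudocounts of 0.5 and 5, no filter, a mean of at least 100, quantile normalization, array weights, an Xist covariate, fits of the libraries compared only and leaving out each library were alternatives. Single genes were also compared by an exact two-sided permutation test over 70 splits. The tests were tried on simulated data first, where DESeq2 made more false calls than limma or edgeR. All 9 members are named; of the other lists, genes past the threshold, at most 5 per list and comparison. The genes named for their level per kb or lack of reads were chosen after their values were seen. Replicate pairs differed by more than sampling noise (chi-square per degree of freedom 8.74 to 84.3 over 36 pairs), so each library counted once. Some genes that the naming rule covers are counted but not reported here by name. The correlations without A1 were added after seeing the data.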

Additional observations from a re-analysis of the deposited data

Results flagged for a closer look

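In 3 of the 48 sets of 4 libraries, 1 library stood apart from the other 3 by a gap that made up most of the whole range (past Dixon's critical value); chance alone flags about 1 in 20 sets. All 3 lay in the Sox1Cre mutants at E13.5. Cyp26b1 was at 798.8 normalized counts in A4 (gap over range 0.8388) and Crabp1 at 217.3 in the same library (0.8307). Dhrs3 was at 53.85 in A1 (0.9187), the library with the lowest sums of choroid plexus, meningeal, endothelial and pericyte markers.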

How the results depend on the processing

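No retinoid gene passed the threshold in the deletion or line comparisons in any of 986 refitted values, the lowest adjusted p being 0.0535 (limma, edgeR and DESeq2). The count of 3 retinoid genes called with age in the Sox1Cre controls became 6 with array weights, 5 with DESeq2 and 0 with the Xist covariate, under which no gene of the table passed while Aldh1a2, Rdh10 and Crabp2 differed by 1.44, 0.80 and -0.83, and leaving out 1 library gave 1 to 6: 1 without A7 or A8 and 6 without A5. Aldh1a2 there lost its call with no filter (adjusted p = 0.0565, limma) and without A6, A7, A8, A13, A14 or A16, and Rdh10 without A7, A8 or A16. In the Sox1Cre mutants Cyp26b1 lost its age call without A4. Of 259 refits of values whose main fit (limma) had an unadjusted p under 0.05, 0 changed sign, and of 1013 refits of the others 88 did. Leaving out 1 library in the mutants gave 3 to 6 calls in place of 4. The number of all genes called was less stable. In the Sox1Cre line at E13.5 it was 44 with the 8 libraries alone, 358 with DESeq2, 962 with array weights and 90 (without A3) to 510 (without A1) in place of 152. At E12.5 it was 76, 294, 577 and 50 (without A13) to 139 in place of 119. In the NestinCre line it was 2 with the Xist covariate, 5 with edgeR, with no filter or with a mean of at least 100, 17 with array weights, 37 with DESeq2 and 2 to 7 on leaving out 1 library in place of 11. For the difference between the lines it was 13 with the libraries compared only, 95 with DESeq2, 369 with array weights and 5 to 144 (without A1) in place of 7, and for that between the ages it was 20 with DESeq2 and 0 to 1 on leaving out 1 library in place of 0. Between the control groups of the lines it was 22 with a mean of at least 100, 108 with array weights, 157 with DESeq2 and 11 to 31 on leaving out 1 library in place of 40. With age in the controls it was 3244 with array weights, 0 with the Xist covariate and 794 (without A6) to 2629 in place of 1892, and in the mutants 2133 with the libraries compared only in place of 4263. The call of Lrat was lost with the 8 libraries alone (adjusted p = 0.0860, limma). No paired analysis was possible because the groups share no replicate numbers. Aldh1a3, with at most 5.84 normalized counts, and Lrat at E12.5 were limited by depth.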
